A study of Mus musculus with 8 samples.

Results

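The genes described here build the contacts of heart muscle cells: the gap junctions, desmosomes and adherens junctions of the intercalated disc, and the costameres that fix the sarcomere to the matrix along the side of the cell. They were chosen by name, as the rows of the deposited count table whose gene name is one of 37 symbols, and 36 of the 37 had such a row among the 56748 rows of the table. Xirp2os had no row of that name and was not analysed here. A filter on low counts left 16002 genes for testing, among them 35 of the 36, and Ilk was the member that it removed.

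Whole hearts of C56BL mice, male and female and 3 to 4 months old, were taken 56 days after transverse aortic constriction, an operation that narrows the aorta, here between the right innominate and the left carotid artery, and loads the left ventricle with pressure. Hearts whose carotid flow ratio lay under 3 or over 25 were left out by the submitters. In the CS7KO group (4 hearts, numbered 1 to 4) Smad7, an inhibitor of TGF-beta receptor signalling, was deleted by a Cre recombinase that the alpha myosin heavy chain promoter (aMHC) drives in cardiomyocytes, so the other cells of the heart kept the gene. The control group, CRE (4 hearts, numbered 1, 2, 3 and 5), carried the same Cre, and all 8 hearts had the operation. The groups thus shared both the Cre and the operation, but the degree of constriction in single hearts was not compared. Hearts 1 and 2 of each group were labelled male and the others female. The series design calls the samples independent.

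At the intercalated disc, cadherins hold neighbouring cells together, and the catenins and plakins behind them tie the cadherins to actin in adherens junctions and to desmin filaments in desmosomes, while connexin channels pass the electrical impulse from cell to cell. At the costamere, integrins with talin and vinculin, and dystroglycan with dystrophin and the sarcoglycans, link the contractile apparatus to laminin in the matrix. Inherited defects in many of these genes cause cardiomyopathy in humans.

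Values of single hearts are given below in the order CRE 1, 2, 3, 5 and CS7KO 1, 2, 3, 4. The libraries were not alike. Total counts lay between 16476420 and 40181492 per library, so that a count of 0 allows a level of up to 0.0643 to 0.363 CPM (counts relative to library size after TMM scaling; a floor of 3 counts, for counting error only). Mitochondrially encoded genes took 41.1% of the counts in CRE 3 and 69.8% in CRE 5 against 15.04% to 24.9% in the other 6 libraries, and genes with 1 to 9 counts numbered 537 in CRE 1 and 5848 to 19697 in the others. Xist, which female cells express, had at most 1.03 CPM in any library, and the Y-linked Ddx3y had 67.9 to 138 CPM in all 8, so the 4 libraries labelled female went against their labels; the fit with a term for labelled sex was kept, and values without that term are given beside the results. Smad7 had 17.6, 25.5, 25.2 and 45.4 CPM in the CRE hearts and 19.8, 13.3, 27.8 and 12.3 CPM in the CS7KO hearts (log2 fold change -0.59, SE 0.34, edgeR adjusted p = 0.509), so the groups overlapped and the level of the deleted gene did not by itself separate the genotypes.

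Levels of cell type markers differed between the hearts. Summed over 10 cardiomyocyte markers, the level was 19629 to 62837 CPM in CRE and 41936 to 53181 CPM in CS7KO, with CRE 5 lowest and CRE 1 highest. Summed over 8 endothelial markers, it was 1611 to 5208 CPM in CRE and 770.1 to 2179 CPM in CS7KO, with CRE 3 and CRE 5 highest, and all 8 markers had a lower fitted level in CS7KO (median log2 fold change -1.09). Of the 5 atrial markers 3 could be tested, and their sum of 116 to 1833 CPM in CRE and 2024 to 2722 CPM in CS7KO was nearly all Nppa, which overloaded ventricle also expresses. Among the atrial markers Nppa alone separated the groups, with 113 to 1830.3 CPM in CRE and 2017 to 2717 CPM in CS7KO (edgeR adjusted p = 0.352). Myl7 and Myl4 stayed under 7 CPM and overlapped, and Sln and Bmp10 were too low to test. All 6 smooth muscle and pericyte markers and all 6 macrophage markers had lower fitted levels in CS7KO, while the 6 fibroblast markers divided into 2 higher and 4 lower. No marker passed edgeR's test and no marker was at 0 in every library. DESeq2, which called 3.64% of all genes, called Myh6 and Ryr2 higher in CS7KO (adjusted p = 0.0188 and 0.0245). It called Egfl7, Tek and Tie1 lower (adjusted p = 0.0392, 0.0418 and 0.0496). Of these genes only Ryr2 overlapped between the groups. Among the 10 cardiomyocyte markers, 6 had a higher fitted level in CS7KO and 4 a lower one. In whole hearts, fewer cells of a type and less RNA per cell cannot be told apart, and the part of these differences in the results below was not tested.

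**Figure D1:**
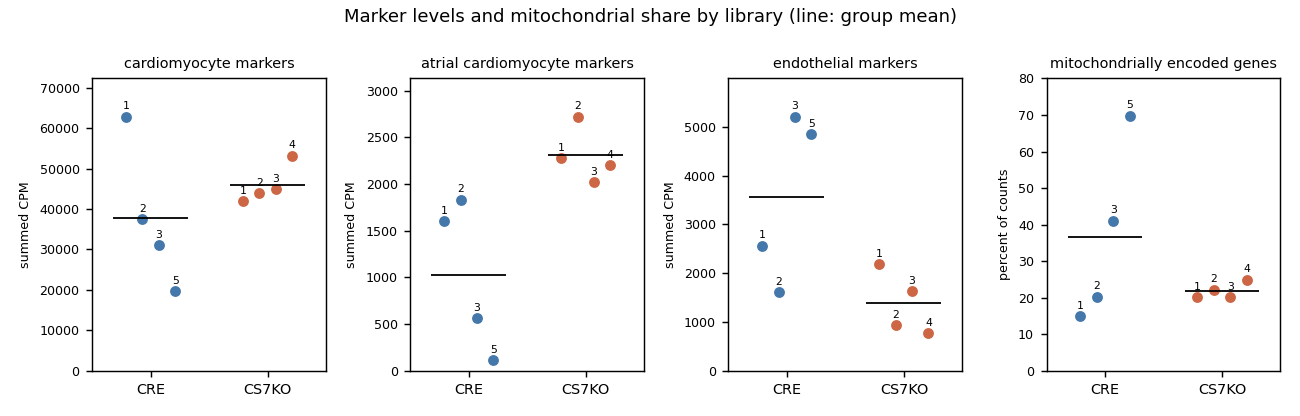
Summed CPM of the cardiomyocyte, atrial cardiomyocyte and endothelial markers, and the percentage of counts from mitochondrially encoded genes, for each of the 8 libraries (points; lines are group means, y axes are linear and start at 0). CRE 5 had the lowest cardiomyocyte sum (19629 CPM) and the highest mitochondrial share (69.8%), and the CRE libraries spread more widely than the CS7KO libraries.

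Most members stood higher in the CS7KO hearts, but none did so by a margin that passed the test over all genes. Of the 35 tested, 27 had a higher fitted level in CS7KO and 8 a lower one, or 77.1% higher, where 51.9% of all 16002 genes were higher. The median log2 fold change of the members was 0.39, beside 0.03 for all genes tested. By edgeR's quasi-likelihood test with Benjamini-Hochberg adjustment over all genes, 0 members had an adjusted p under 0.05, as against 6 of the 16002 genes (0.0375%). At an unadjusted p under 0.05 there were 10 members higher (28.6%, all genes 6.12%) and 1 lower (2.86%, all genes 6.52%). DESeq2 called 8 of the 35 (22.9%, all genes 3.64%), namely Dsp, Cdh2, Ctnna3, Vcl, Tln2, Dmd and Dag1 higher and Gja5 lower, and limma-voom called 0 (all genes 0.0312%). The members were chosen with earlier results of these data known, so the shares describe them and are no independent test.

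In 8 members the 4 CS7KO libraries all lay above the 4 CRE libraries (22.9%, all genes 6.24%): Dsp, Pkp2, Ctnna3, Vcl, Tln2, Dmd, Dag1 and Sgcb. In 1 member, Gja5, they all lay below (2.86%, all genes 4.11%), so that 9 members separated the groups in either direction, where 10.3% of all genes did. Without the term for labelled sex, 8 members were higher and 1 lower at an unadjusted p under 0.05, and 0 passed edgeR's adjusted test. Without CRE 3 and CRE 5, the libraries with the highest mitochondrial shares, 1 was higher and 1 lower at that threshold, while the median log2 fold change of the members was 0.42 (all genes 0.16). With the sex term dropped as well, 4 were higher and 1 lower, and the median was 0.33 (all genes 0.16). The shares of all genes at that threshold are not given for these fits, so nothing about the members is read from the change in the counts. With CRE 3 and CRE 5 left out the CRE group has 2 hearts, both labelled male. The genotype effect in the fit with the sex term then rests on CRE 1 and 2 against CS7KO 1 and 2. This holds for all values without CRE 3 and CRE 5 given below, unless the sex term is said to be dropped. The fold changes of the 9 members named above kept their sign, with that term and without it.

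**Figure D2:**
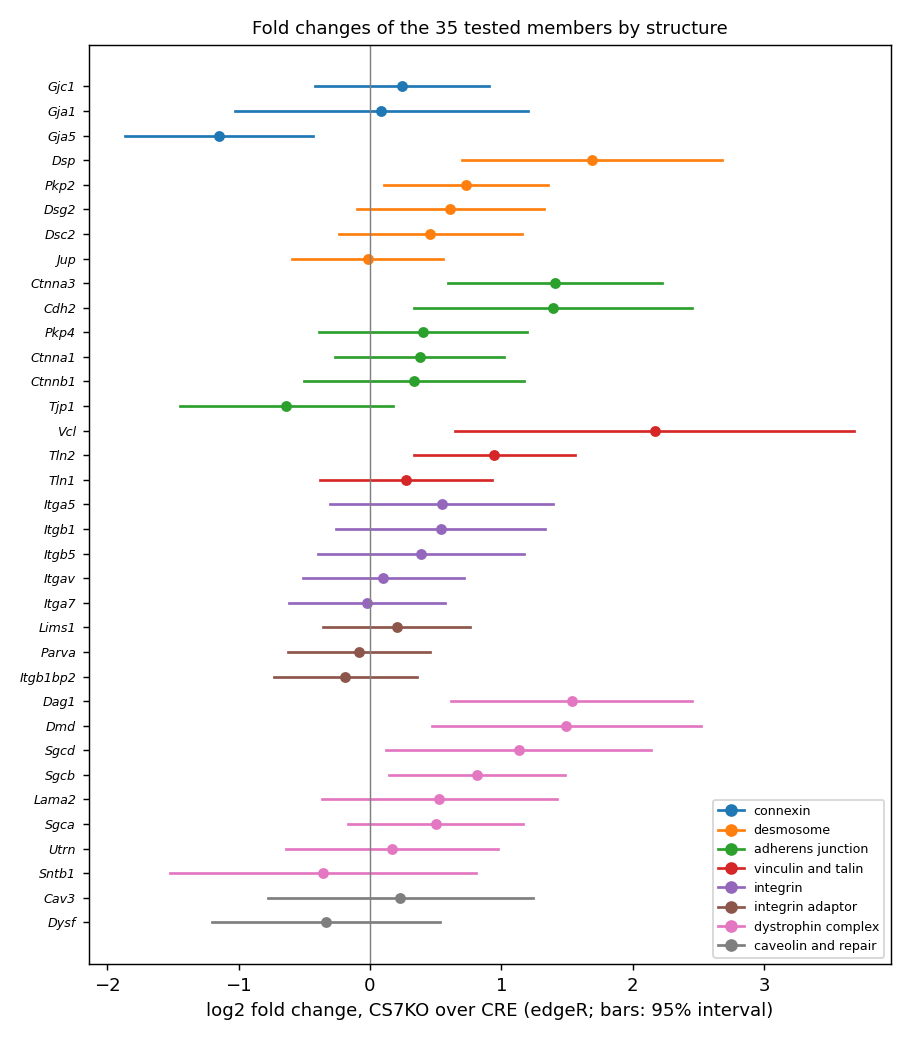
Log2 fold change of CS7KO over CRE for each of the 35 tested members (points) with its 95% interval (bars) from edgeR, coloured by structure. The points run from -1.15 for Gja5 to 2.17 for Vcl, and 27 lie to the right of 0.

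The CRE hearts varied more than the CS7KO hearts. The SD of log2 CPM was larger in CRE for 29 of the 35 members (82.9%), as it was for 87.1% of all genes, and its median over members was 0.63 in CRE and 0.29 in CS7KO. Library by library, the median member stood 0.53, 0.34 and 0.56 log2 units below its mean over the 8 libraries in CRE 1, 3 and 5, and 0.13 above it in CRE 2. In CS7KO 1 to 4 the median deviation was 0.47, -0.01, 0.15 and 0.21. By this median CRE 2 lay within the range of the CS7KO libraries, and CS7KO 1 stood highest.

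**Figure D3:**
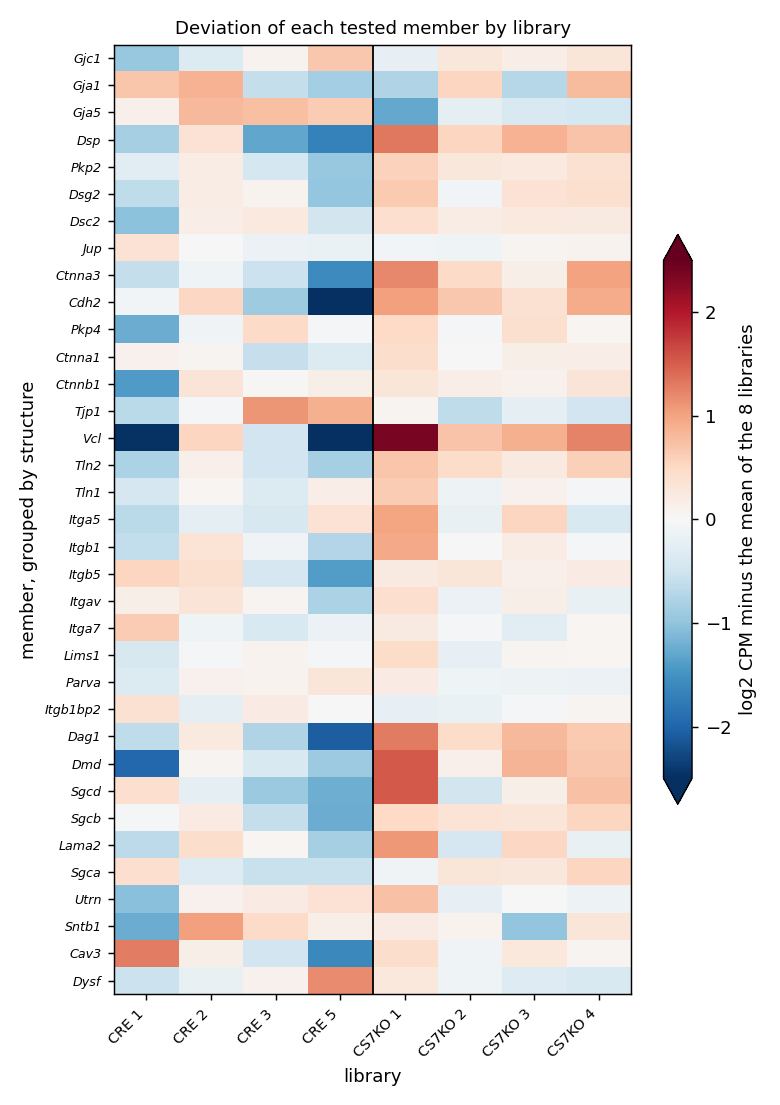
Log2 CPM of each tested member minus its mean over the 8 libraries (colour), with members in rows grouped by structure and libraries in columns. CRE 1, 3 and 5 are mostly below the mean, with medians of -0.53, -0.34 and -0.56, and CS7KO 1 is mostly above it, with a median of 0.47.

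Many members are long genes, and fold changes varied with length in these libraries. The median gene length in the deposited table was 6436 bases for the tested members and 4546 bases for the 13833 tested protein-coding genes. Protein-coding genes under 2000 bases had a median log2 fold change of -0.25 and those of 8000 bases or more a median of 0.14. The groups did not overlap, with CS7KO higher, in 2.52% of the shortest class and in 7.58% of the longest. In CRE 1 the shortest class stood 0.75 log2 units above its mean over the libraries and the longest 0.64 below it. The 15 members of at least 8000 bases had a median log2 fold change of 0.53, with 4 of them higher in CS7KO without overlap. The 16 members of at least 4000 and under 8000 bases had a median of 0.39, also with 4. Over all tested protein-coding genes of that class the median was 0.03, and 6.8% were higher in CS7KO without overlap.

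Promoters are shown for the 3 members with the smallest p, Ctnna3, Dsp and Dag1, and for Vcl and Dmd, which were added after their values and sequences had been seen because both hold a CArG box, the motif bound by serum response factor. RefSeq entries on GRCm38.p6 matched 25 members with 35 start sites. For Dmd, which has 2, a start site whose window holds a CArG box was picked, and for the others the 5′-most of several. Each sequence is the 250 bases before the start site, on the strand of the gene, with motif matches in capitals. They lie at chr10:63429848-63430097 (plus strand) for Ctnna3, chr13:38151044-38151293 (plus) for Dsp, chr9:108263959-108264208 (minus) for Dag1, chr14:20929148-20929397 (plus) for Vcl and chrX:82948620-82948869 (plus) for Dmd.
Ctnna3: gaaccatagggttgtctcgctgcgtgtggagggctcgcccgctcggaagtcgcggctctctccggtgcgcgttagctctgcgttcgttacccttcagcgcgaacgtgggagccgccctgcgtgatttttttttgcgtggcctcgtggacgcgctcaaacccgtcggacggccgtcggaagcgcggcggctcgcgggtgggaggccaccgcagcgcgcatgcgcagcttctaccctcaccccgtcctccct
Dsp: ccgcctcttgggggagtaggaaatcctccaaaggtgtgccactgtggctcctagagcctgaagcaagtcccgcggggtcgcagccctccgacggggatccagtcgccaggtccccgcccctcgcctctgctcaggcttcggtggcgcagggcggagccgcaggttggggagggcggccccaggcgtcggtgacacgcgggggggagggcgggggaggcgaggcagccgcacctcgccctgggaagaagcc
Dag1: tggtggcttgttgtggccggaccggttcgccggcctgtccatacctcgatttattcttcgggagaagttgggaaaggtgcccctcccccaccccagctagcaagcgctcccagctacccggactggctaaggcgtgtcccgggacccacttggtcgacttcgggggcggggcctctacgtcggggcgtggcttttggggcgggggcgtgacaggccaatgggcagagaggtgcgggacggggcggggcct
Vcl: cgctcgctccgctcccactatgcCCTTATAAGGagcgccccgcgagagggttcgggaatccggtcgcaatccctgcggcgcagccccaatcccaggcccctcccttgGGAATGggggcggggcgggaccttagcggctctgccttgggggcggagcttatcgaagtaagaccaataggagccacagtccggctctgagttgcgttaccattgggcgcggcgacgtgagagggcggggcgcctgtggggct
Dmd: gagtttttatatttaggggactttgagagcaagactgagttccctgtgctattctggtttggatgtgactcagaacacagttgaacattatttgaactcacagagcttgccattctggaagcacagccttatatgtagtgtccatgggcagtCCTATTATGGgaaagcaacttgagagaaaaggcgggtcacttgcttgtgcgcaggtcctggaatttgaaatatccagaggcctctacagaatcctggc

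The capitals in Vcl mark a CArG box, CCTTATAAGG, and GGAATG, which is CATTCC, the core bound by TEAD factors, read from the other strand. In Dmd they mark the CArG box CCTATTATGG. The Ctnna3, Dsp and Dag1 stretches hold none of the 4 motifs searched on both strands, which were the Smad-binding core CAGAC, the TEAD core CATTCC, the MEF2 motif (searched as CTA and TAG with any 4 bases between) and the CArG box (CC and GG with 6 bases between, each A or T). Over all 35 member promoters the CArG box was found in 3 (Dmd, Lama2 and Vcl), against 1.47% of the 32851 promoters in the table. CAGAC was found in 10 member promoters, including another start site of Ctnna3, and in 42.2% of all promoters, CATTCC in 4 and 12.6%, and the MEF2 motif in 1 (Tln1) and 3.2%. These matches describe the letters in the window and not binding.

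Among the connexins, the channel proteins of gap junctions, Gja5 was lower in CS7KO and the others did not separate. Gja5 encodes connexin 40, the connexin of atrial muscle, the conduction system and arterial endothelium (ENSMUSG00000057123, chromosome 3, 96812009 to 96984732 on the plus strand as deposited). It had 10.6, 17.1, 16.3 and 15.1 CPM in the CRE hearts and 3.92, 8.24, 7.46 and 7.11 CPM in the CS7KO hearts. Every CS7KO library lay below every CRE library, with a mean of 14.8 ± 2.93 CPM in CRE and 6.68 ± 1.90 CPM in CS7KO (SD, n = 4 each). Its log2 fold change was -1.15 (SE 0.32, 95% interval -1.86 to -0.43), a level 0.451 times that of CRE, with an edgeR adjusted p of 0.291 and a DESeq2 adjusted p of 0.0456. Without the term for labelled sex it was -1.14, and without CRE 3 and CRE 5 it was -1.26.

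Gja5 overlaps Gpr89, a gene on the other strand with 2535 counts over all libraries beside 2010 for Gja5, and the sources used here do not say whether reads were assigned by strand. As deposited, the genes share only the stretch from 96812009 to 96812662, and the reads within it are not known. Gpr89 itself had a log2 fold change of 0.22 (edgeR adjusted p = 0.838). Of the atrial markers Nppa stood higher in CS7KO while Myl7 and Myl4 overlapped between the groups, and the endothelial markers had lower fitted levels. Their part in the level of Gja5 was not tested.

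Gja1 encodes connexin 43, the main connexin of working ventricular muscle, and by length it was the most abundant of the 3 connexins, at 24.9 RPKM, the CPM divided by the length in kilobases, over the 8 libraries against 5.53 for Gjc1 and 1.87 for Gja5. Its levels were 367, 413, 149.9 and 126 CPM in the CRE hearts and 134, 326, 138 and 389.8 CPM in the CS7KO hearts. Both groups held libraries near 140 and libraries above 320 CPM, and the log2 fold change of 0.09 (SE 0.50, 95% interval -1.03 to 1.20) had an edgeR adjusted p of 0.967. Without CRE 3 and CRE 5 its sign turned, to -0.84. Gjc1, connexin 45 of the conduction system and the developing heart, ran from 13.7 CPM in CRE 1 to 42.3 CPM in CRE 5, with the CS7KO libraries between, at 22.7 to 32.5 CPM (log2 fold change 0.24, SE 0.30, edgeR adjusted p = 0.791).

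The desmosomal genes stood higher in CS7KO in 4 of 5 cases (80%, all genes 51.9%), with a median log2 fold change of 0.61. Dsp encodes desmoplakin, the plakin that joins the desmosome to desmin (ENSMUSG00000054889, chromosome 13, 38335270 to 38382553 on the plus strand as deposited), and was the most abundant member by length, at 101 RPKM. It had 440.2, 1006, 316 and 244 CPM in the CRE hearts and 1962, 1142, 1429 and 1286 CPM in the CS7KO hearts. The lowest CS7KO library lay just above CRE 2, and the other CRE libraries were far lower, the group means being 502 ± 346 CPM in CRE and 1455 ± 358 CPM in CS7KO (SD, n = 4 each). The level in CS7KO was 3.22 times that in CRE (log2 fold change 1.69, SE 0.44, 95% interval 0.70 to 2.68), with an edgeR adjusted p of 0.286 and a DESeq2 adjusted p of 0.00217. The log2 fold change was 1.54 without the term for labelled sex and 1.05 without CRE 3 and CRE 5.

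Pkp2, plakophilin 2, which binds desmoplakin to the desmosomal cadherins, had 139, 192, 125 and 87.2 CPM in the CRE hearts and 254, 206, 201 and 221 CPM in the CS7KO hearts. The groups did not overlap, but CRE 2 came within 10 CPM of the lowest CS7KO library. The log2 fold change was 0.73 (SE 0.28, edgeR adjusted p = 0.338), and 0.42 without CRE 3 and CRE 5. The desmosomal cadherins Dsg2 (desmoglein 2) and Dsc2 (desmocollin 2) had log2 fold changes of 0.61 (SE 0.32) and 0.46 (SE 0.31), with edgeR adjusted p-values of 0.458 and 0.585, and their groups overlapped. Jup, plakoglobin, which serves desmosomes and adherens junctions alike, stood at 166 to 238 CPM in CRE and 173 to 198 CPM in CS7KO, and its log2 fold change of -0.02 had a 95% interval from -0.59 to 0.56.

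In the adherens junction, 5 of 6 members were higher in CS7KO (83.3%, all genes 51.9%), with a median log2 fold change of 0.39. Ctnna3 encodes alpha-T-catenin, the alpha-catenin largely confined to heart and testis, which links the cadherin complex to actin and binds plakophilin 2 (ENSMUSG00000060843, chromosome 10, 63265877 to 64839446 on the plus strand as deposited). It had 5.88, 8.32, 6.20 and 2.90 CPM in the CRE hearts and 20.7, 12.6, 9.97 and 18.02 CPM in the CS7KO hearts. No library overlapped between the groups, and CS7KO 3 came closest to CRE 2. The log2 fold change was 1.41 (SE 0.37, 95% interval 0.59 to 2.23), with an edgeR adjusted p of 0.282 and a DESeq2 adjusted p of 0.0208, and it was 1.38 without the term for labelled sex and 1.19 without CRE 3 and CRE 5. Ctnna1, the widely expressed alpha-E-catenin, was far more abundant at 61.2 RPKM against 1.46, and its groups overlapped (log2 fold change 0.38, SE 0.29, edgeR adjusted p = 0.628).

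Cdh2, N-cadherin, the classical cadherin of cardiomyocytes, had 117, 178, 67.1 and 20.4 CPM in the CRE hearts and 253, 199, 162 and 235 CPM in the CS7KO hearts. CS7KO 3 lay below CRE 2, so the groups overlapped, and CRE 5 was lowest. Its log2 fold change of 1.39 (SE 0.47, edgeR adjusted p = 0.303, DESeq2 adjusted p = 0.0495) was 0.56 without CRE 3 and CRE 5. Ctnnb1, beta-catenin, which binds the cadherin tail, and Pkp4, a plakophilin of the p120 family, had log2 fold changes of 0.33 (SE 0.37) and 0.40 (SE 0.35), each with its lowest level in CRE 1. Tjp1, the scaffold ZO-1 that borders connexin 43 plaques, was the one member of this structure with a lower fitted level in CS7KO, with 46.9, 72.6, 162 and 140.2 CPM in the CRE hearts and 79.0, 48.7, 63.4 and 53.9 CPM in the CS7KO hearts. CRE 3 and CRE 5 were its highest, and without them the log2 fold change moved from -0.64 (SE 0.36, edgeR adjusted p = 0.505) to 0.05. Both libraries had the highest endothelial marker sums and mitochondrial shares (41.1% and 69.8%), and both were labelled female. The part of any of these in the level of Tjp1 was not tested.

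Of the cytoplasmic linkers, Vcl had the largest fold change of all members. It encodes vinculin, which joins talin and alpha-catenin to actin and so serves both the costamere and the disc (ENSMUSG00000021823, chromosome 14, 20979466 to 21083744 on the plus strand as deposited). It had 3.76, 30.8, 15.1 and 2.90 CPM in the CRE hearts and 109, 34.8, 39.3 and 49.8 CPM in the CS7KO hearts. CRE 1 and CRE 5 had under 4 CPM of it, CS7KO 1 was highest, and CRE 2 came within 5 CPM of CS7KO 2. The level in CS7KO was 4.49 times that in CRE (log2 fold change 2.17, SE 0.68, 95% interval 0.65 to 3.68), with an edgeR adjusted p of 0.295 and a DESeq2 adjusted p of 0.0245. Left out in turn, 1 library moved the log2 fold change to between 1.80 (without CS7KO 1) and 2.99 (without CRE 2), and without CRE 1 and CRE 5 it was 1.45. Vcl overlaps Ap3m1 on the other strand, which had 6704 counts beside 7424 for Vcl and a log2 fold change of 0.37 (edgeR adjusted p = 0.585). As deposited, the genes share only the stretch from 21081510 to 21083744.

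Tln2, the talin isoform of striated muscle, which couples integrins to vinculin and actin (ENSMUSG00000052698, chromosome 9, 67124369 to 67466985 on the minus strand as deposited), had 39.9, 75.3, 49.1 and 38.7 CPM in the CRE hearts and 110.5, 94.5, 80.3 and 104 CPM in the CS7KO hearts. The groups did not overlap, and CRE 2 was again the CRE library nearest to CS7KO. Its log2 fold change was 0.95 (SE 0.27, 95% interval 0.34 to 1.56), with an edgeR adjusted p of 0.291 and a DESeq2 adjusted p of 0.0376, and it was 0.94 without the term for labelled sex and 0.78 without CRE 3 and CRE 5. Tln1, the widely expressed talin, stood at 138 to 207 CPM in CRE and 167 to 285 CPM in CS7KO, with a log2 fold change of 0.27 (SE 0.29, edgeR adjusted p = 0.755). Tln1 overlaps Creb3 on the other strand, whose counts came to 20.7% of its own. As deposited, the genes share only the stretch from 43562332 to 43562691.

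**Figure D4:**
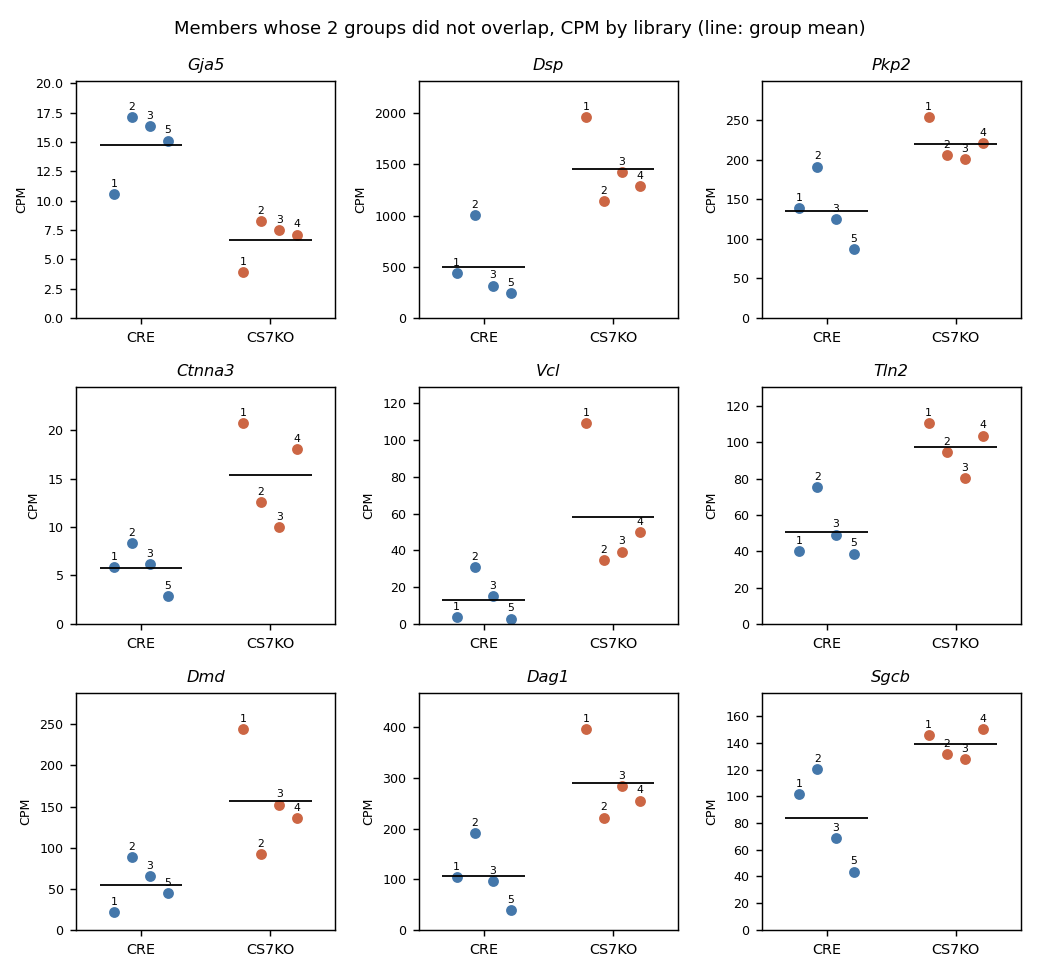
CPM by library for the 9 members whose groups did not overlap (points; lines are group means, n = 4 each; linear y axes start at 0). Gja5 is lower in all 4 CS7KO libraries and the other 8 genes are higher, and CRE 2 is the highest CRE library in all 9 panels.

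None of the 5 integrin subunits separated the groups, where 10.3% of all genes did in either direction. Itgb1, the beta-1 subunit shared by most cardiac integrins and the second most abundant member by length at 88.8 RPKM, had 221, 431, 322 and 204 CPM in the CRE hearts and 659, 341, 390.0 and 332 CPM in the CS7KO hearts. CS7KO 1 was highest, and the other CS7KO libraries lay within the range of CRE (log2 fold change 0.54, SE 0.36, edgeR adjusted p = 0.573). Itga7, the laminin-binding partner of beta-1 in mature muscle, stood at 80.8 to 164 CPM in CRE and 87.5 to 123 CPM in CS7KO (log2 fold change -0.02, 95% interval -0.62 to 0.57). Itga5, the fibronectin-binding alpha subunit, was at 197 and 144 CPM in CS7KO 1 and 3 but at 86.5 and 75.8 CPM in CS7KO 2 and 4, within the range of CRE (log2 fold change 0.55, SE 0.38, edgeR adjusted p = 0.596). Itgav and Itgb5, the alpha and beta subunits of a vitronectin receptor, had log2 fold changes of 0.10 (SE 0.27) and 0.39 (SE 0.35), and Itgb5 ran from 71.1 CPM in CRE 5 to 272 CPM in CRE 1 around a narrow range of 205 to 229.6 CPM in CS7KO.

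None of the tested integrin adaptors separated the groups either (all genes 10.3%). The log2 fold changes were -0.08 (SE 0.24) for Parva, the actin-binding alpha-parvin, 0.20 (SE 0.25) for Lims1, the LIM protein PINCH1, and -0.19 (SE 0.24) for Itgb1bp2, melusin, a muscle chaperone that binds beta-1 integrin. Their edgeR adjusted p-values were 0.924, 0.795 and 0.810. Of Ilk, the pseudokinase that joins PINCH and parvin to beta-1 integrin, 0, 8, 13 and 11 reads were counted in the CRE hearts and 9, 10, 6 and 6 in the CS7KO hearts, too few to test. Over the 8 libraries Ilk had 63 counts, while Taf10 and Rrp8, which overlap it on the other strand, had 6503 and 1604. How reads in such overlaps were counted is not stated, and no level of Ilk is drawn from these counts.

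Of the 8 members of the dystrophin-glycoprotein complex, 7 stood higher in CS7KO (87.5%, all genes 51.9%), with a median log2 fold change of 0.67. Dag1, Dmd and Sgcb separated the groups (37.5%, all genes 6.24% with CS7KO higher). Dag1 encodes dystroglycan, the laminin receptor at the core of the complex (ENSMUSG00000039952, chromosome 9, 108081833 to 108141157 on the minus strand as deposited). It had 104, 191, 95.7 and 38.6 CPM in the CRE hearts and 397, 222, 284 and 256 CPM in the CS7KO hearts. CS7KO 2 was nearest to CRE 2, and CRE 5 was lowest, the group means being 107 ± 63.1 CPM in CRE and 289.6 ± 75.9 CPM in CS7KO (SD, n = 4 each). The level in CS7KO was 2.90 times that in CRE (log2 fold change 1.53, SE 0.41, 95% interval 0.62 to 2.45), with an edgeR adjusted p of 0.287 and a DESeq2 adjusted p of 0.00905, and the log2 fold change was 1.43 without the term for labelled sex and 1.02 without CRE 3 and CRE 5.

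Dmd, dystrophin, the rod that ties dystroglycan to actin (ENSMUSG00000045103, chromosome X, 81992476 to 84249747 on the plus strand as deposited), had 21.6, 88.9, 65.0 and 45.1 CPM in the CRE hearts and 244, 92.4, 152 and 135 CPM in the CS7KO hearts. CS7KO 2 exceeded CRE 2 by under 4 CPM, and the other CS7KO libraries lay well above. The log2 fold change was 1.496 (SE 0.46, 95% interval 0.47 to 2.52), with an edgeR adjusted p of 0.295 and a DESeq2 adjusted p of 0.0360, and it was 1.501 without the term for labelled sex and 1.56 without CRE 3 and CRE 5. Utrn, utrophin, the dystrophin relative found in many tissues, stood at 38.0 to 100.2 CPM in CRE and 67.3 to 129 CPM in CS7KO, with a log2 fold change of 0.17 (SE 0.36, edgeR adjusted p = 0.892).

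Among the sarcoglycans, which brace dystroglycan in the membrane, Sgcb had 101, 120.3, 68.7 and 43.7 CPM in the CRE hearts and 146, 131, 128 and 150.4 CPM in the CS7KO hearts. The groups did not overlap, and the CS7KO libraries lay close together. The log2 fold change was 0.81 (SE 0.30, edgeR adjusted p = 0.327), and 0.27 without CRE 3 and CRE 5. Sgca and Sgcd had log2 fold changes of 0.50 (SE 0.30) and 1.13 (SE 0.45), with edgeR adjusted p-values of 0.526 and 0.354, and both overlapped between groups. Lama2, the laminin chain that dystroglycan binds, was higher (0.53, SE 0.40 on the log2 scale) and Sntb1, a syntrophin that docks signalling proteins on dystrophin, was lower (-0.35, SE 0.52), with edgeR adjusted p-values of 0.628 and 0.833.

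The last pair acts at the membrane itself. Cav3, the muscle caveolin, had 120.2, 55.1, 35.8 and 16.2 CPM in the CRE hearts and 67.1, 47.0, 59.5 and 51.9 CPM in the CS7KO hearts. The CRE libraries spread over the whole range and the CS7KO libraries lay within it, and the log2 fold change of 0.23 (SE 0.45, edgeR adjusted p = 0.879) was -0.66 without CRE 3 and CRE 5. Dysf, dysferlin, which reseals torn membrane, was highest in CRE 5 at 170.3 CPM and lay between 51.6 and 89.4 CPM in the other 7 libraries (log2 fold change -0.33, SE 0.39, edgeR adjusted p = 0.780).

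Within a library, the ratio of 2 genes does not depend on how the libraries are scaled, so a form typical of muscle was set against a relative for 6 pairs, on log2 ratios of counts plus 0.5. The ratio of Dmd to Utrn was 0.568, 1.06, 0.723 and 0.451 in the CRE hearts and 1.90, 1.37, 1.97 and 1.89 in the CS7KO hearts. All 4 CS7KO libraries lay above all 4 CRE libraries, with mean log2 ratios of 0.82 ± 0.24 and -0.59 ± 0.53 (SD, n = 4 each). The difference of 1.41 had p = 0.0286 in an exact two-sided permutation test, the smallest that 70 assignments of the libraries allow, and 0.114 after Benjamini-Hochberg adjustment over the 6 ratios.

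The ratio of Ctnna3 to Ctnna1 differed by 1.05 on the log2 scale and that of Tln2 to Tln1 by 0.71, each with 3 of 4 CS7KO libraries above every CRE library and with p = 0.0571 by the exact permutation test (0.114 adjusted). Gja1 over Gja5 differed by 1.10, with p = 0.171 by the exact permutation test (0.257 adjusted), and 2 CS7KO libraries above every CRE library. The ratios of Itga7 to Itga5 and to Itgav differed by -0.48 and -0.12, with p = 0.457 and p = 0.686 by the exact permutation test (0.549 and 0.686 adjusted). None of the 6 ratios passed after adjustment. The smallest p that this test allows is 0.0286, so a fully separated ratio cannot pass the adjustment unless others separate as well. No conclusion is drawn from this outcome.

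**Figure D5:**
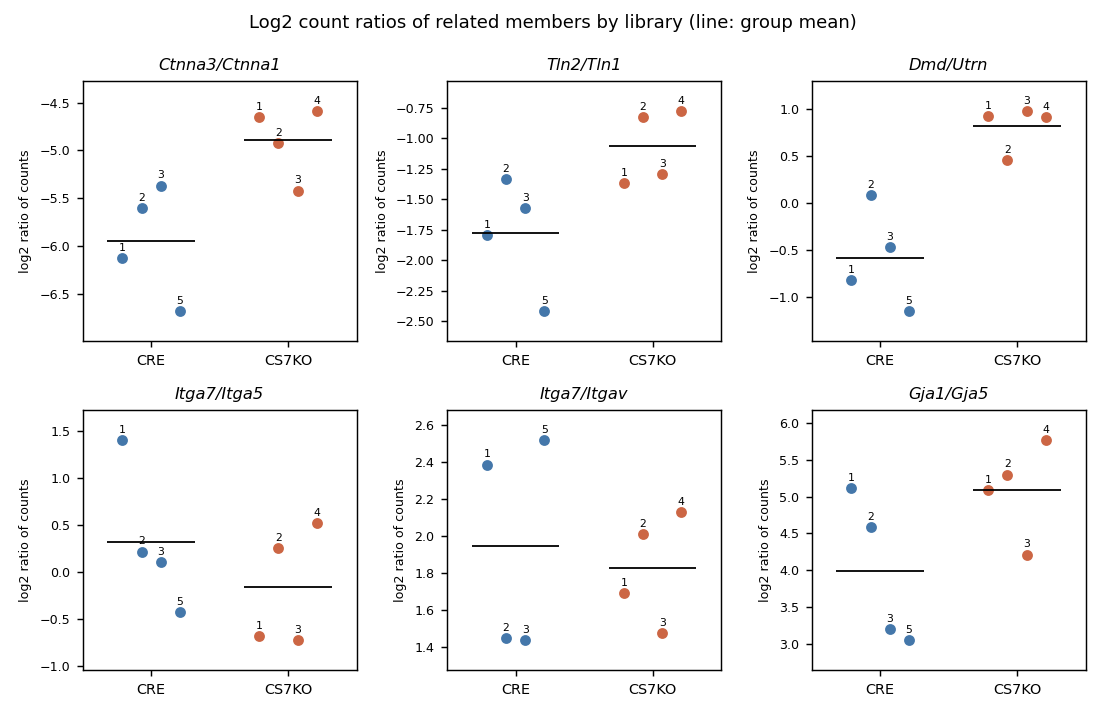
Log2 ratio of counts within each library (points; lines are group means, n = 4 each) for 6 pairs of related members. Dmd over Utrn is higher in all 4 CS7KO libraries, between 0.46 and 0.98, than in any CRE library, where it runs from -1.15 to 0.09.

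The labelled sexes were compared in the same fit, although the Xist and Ddx3y levels went against the female labels. Between hearts labelled female and male, 0 members passed edgeR's test (0% of all genes), 0 had an unadjusted p under 0.05 (all genes 2.67%), and DESeq2 and limma-voom also called 0. For the difference of the genotype effect between labelled sexes, in a model of 4 groups with 2 libraries each, edgeR called 0 members (0% of all genes) and so did limma-voom, and DESeq2 called 0 of the 27 to which it gave an adjusted p. At an unadjusted p under 0.05 there were 3 members (all genes 7.08%), with a difference, female minus male, of -1.46 for Tjp1, -1.54 for Dysf and 1.71 for Cav3 on the log2 scale and an edgeR adjusted p of 0.667 for each.

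Other genes of the same structures, 101 with a row and 87 tested, were read from the same fit. Of the 87, 50 were higher (57.5%, all genes 51.9%) and 37 lower in CS7KO, with a median log2 fold change of 0.11, and edgeR and limma-voom called 0. At an unadjusted p under 0.05 there were 20 higher (23.0%, all genes 6.12%) and 8 lower (9.2%, all genes 6.52%), and DESeq2 called 10 (12.2%, all genes 3.64%). Among those 10 were Des, Nrap, Xirp1, Tns1, Itga1 and the caveola genes Cav1, Cav2, Cavin1 and Cavin2.

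On the disc side, Des, the desmin filament that desmosomes anchor, had 3048, 2881, 1206 and 807 CPM in the CRE hearts and 4899.5, 3584, 3329 and 3374 CPM in the CS7KO hearts. The groups did not overlap, with CRE 3 and CRE 5 far below CRE 1 and CRE 2 (log2 fold change 1.13, edgeR adjusted p = 0.338, DESeq2 0.0256). Gja3, connexin 46, was low in both groups at 4.56 ± 1.16 CPM in CRE and 9.11 ± 1.81 CPM in CS7KO (SD, n = 4 each; log2 fold change 1.02, SE 0.33, edgeR adjusted p = 0.295), and Gja4, connexin 37, had a log2 fold change of 0.21. Perp, a desmosomal membrane protein, had one of 1.08 with overlapping groups. The actin-binding disc proteins Xirp1 and Nrap had log2 fold changes of 1.72 and 1.38, with edgeR adjusted p-values of 0.291 and 0.311, DESeq2 adjusted p-values of 0.0141 and 0.0458, and CS7KO 1 far above the rest in both.

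On the costamere side, Tns1, tensin 1, which binds integrin tails, had a log2 fold change of 1.06 (edgeR adjusted p = 0.335, DESeq2 0.0473), and Dtna, dystrobrevin alpha, one of 0.84 (edgeR adjusted p = 0.311). Lower in CS7KO were Itga1, a collagen-binding alpha subunit (86.7 ± 38.3 and 34.8 ± 3.88 CPM; log2 fold change -1.24, edgeR adjusted p = 0.287, DESeq2 0.0250), and Itga8 (-1.44), Lama4 (-0.89), Parvg (-1.03) and Lims2 (-0.76), with edgeR adjusted p-values from 0.295 to 0.501. Endothelial markers were lower in CS7KO as well, and their part in these levels was not tested.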

How the data were processed

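Polyadenylated RNA of whole hearts was extracted with Trizol and sequenced from Illumina libraries at Novogene, as the labels' protocols state. The authors deposited raw read counts per gene, not normalized, for 8 libraries, with gene lengths and coordinates. Tools in the submitters' processing notes are HTSeq 0.6.1, Cufflinks 2.1.1, TopHat2 2.0 and CASAVA, and the builds are GRCm38.p6 and mm10, without roles. The deposited coordinates equalled those of GENCODE M21 for 1472 of 52073 matched genes (2.83%), so their build is unsettled and they are printed as deposited. The sources used here do not state strand use.

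The members, the lists of other genes and markers, and the settings were chosen with earlier results of these data known. Counts were tested in R 4.3.3 with edgeR 4.0.16: filterByExpr on genotype (minimum count 10, minimum total 15), TMM scaling, a robust quasi-likelihood fit of genotype and labelled sex, Benjamini-Hochberg adjustment over 16002 genes and a threshold of 0.05. The fit was checked on simulated data. Fold changes are CS7KO over CRE, CPM uses TMM-scaled library sizes, and RPKM divides CPM by the deposited length in kilobases. Deviations of log2 CPM use a prior count of 2. The 6 ratios were tested by exact permutation over 70 assignments. All members are accounted for, and the other genes named are, in each structure, those past the threshold or, as none passed, the pair with the smallest p; 1 of these genes is not reported here, and Cav1, Cav2, Ehd2, Cavin4, Trim72, Anxa6 and Myof were named after their values were seen. Other settings were DESeq2 1.42.0, limma-voom 3.58.1, other scaling, other filters, no sex term, a replicate block and libraries left out. Every pair of libraries within a group differed by more than sampling noise (chi-square per degree of freedom at least 9.58), so none was counted as a duplicate.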

Additional observations from a re-analysis of the deposited data

Results flagged for a closer look

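In 84 groups of 4 libraries (36 members and 6 ratios in each genotype), 1 library lay far from the other 3 in 3 cases, where chance gives about 1 in 20 groups. Utrn was high in CS7KO 1, at 129 CPM against 67.3 to 77.3 CPM in the other CS7KO hearts. Parva was high in the same library, at 64.6 CPM against 50.7 to 52.1 CPM. The log2 ratio of Dmd to Utrn was low in CS7KO 2, at 0.458 against 0.92 to 0.98 in the other CS7KO hearts, and still above the highest CRE value of 0.09.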

How the results depend on the processing

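The edgeR count of 0 members and 0 other genes called by genotype held with other scaling, the strict filter, mitochondrial genes removed, no sex term and each library left out in turn, and in limma-voom. DESeq2 called 8 members and 10 other genes, where it called 492 over all genes. DESeq2 with no sex term (added after the data were seen) called 7 and 8, with 405 over all genes. With no filter edgeR called 5 and 7, with 338 over all genes, against 6 in the main fit. By labelled sex and by interaction 0 members were called wherever these were fitted. Scaling to library totals (added after the data were seen) moved the median log2 fold change of all genes from 0.03 to 0.31 and that of the members to 0.63 (32 higher, 3 lower). No filter, which admits 48657 genes, moved the median of all genes to 0.57 and that of the members, 36 in this fit, to 0.50.

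Under these settings signs turned only among members whose groups overlap, and in none of the 9 whose groups separate. Jup turned to 0.00175 with DESeq2, 0.00188 with RLE factors, 0.096 with no filter, 0.026 without mitochondrial genes, 0.28 with library totals and 0.12 without CRE 1 and CRE 5. Itga7 turned to 0.0041 in limma-voom, 0.099 with no filter, 0.024 without mitochondrial genes, 0.30 with library totals and 0.30 without CRE 1 and CRE 5. Parva turned to 0.016 with no filter, 0.21 with library totals, 0.11 without CRE 3 and CRE 5 and 0.013 when the sex term was also dropped. With library totals Itgb1bp2 turned to 0.10 and Dysf to 0.032. With no sex term Gja1 was -0.096 and Cav3 -0.014, and in DESeq2 with no sex term -0.094 and -0.00598. Without CRE 1 and CRE 5, Gja1 was -0.085, Itgav -0.067 and the log2 ratio of Itga7 to Itgav 0.38. Without CRE 3 and CRE 5, Gja1 was -0.84, Tjp1 0.050, Itgav -0.12, Itgb5 -0.265, Sgca -0.033, Cav3 -0.66 and Dysf 0.39, and with no sex term as well, Gja1 was -0.72, Itgav -0.21, Itgb5 -0.31, Cav3 -0.68 and Dysf 0.18. With 1 library left out in turn, the ranges that cross 0 were -0.068 to 0.15 for Jup, -0.12 to 0.23 for Itga7, -0.27 to 0.013 for Itgb1bp2, -0.15 to 0.33 for Utrn, -0.66 to 0.17 for Sntb1, -0.44 to 0.49 for Gja1, -0.041 to 0.25 for Itgav, -0.19 to 0.042 for Parva, -0.12 to 0.70 for Cav3, -0.54 to 0.10 for Dysf and -0.29 to 0.069 for the ratio of Itga7 to Itgav. The cause was not tested.

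Replicate numbers 1 to 3 are shared by the genotypes, and the deviations of same-numbered libraries correlated at 0.042, -0.088 and 0.352. Such correlations cannot exclude a pairing. The series design calls the samples independent, so the hearts were not treated as pairs. With the replicate block, 0 members were called, and 4 were higher and 1 lower at an unadjusted p under 0.05. The share of all genes at that threshold is not given for this fit. In it Gja1 was -0.63, Itgav -0.038, Parva 0.0445, Cav3 -0.12 and Dysf 0.14. Of the members with a row, Ilk had too few counts to test.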

Other observations

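Several other genes of caveolae, the small membrane pits that buffer stretch, stood lower in CS7KO; they were singled out after their values were seen. Cav1, Cav2, Cavin1, Cavin2 and Ehd2 lay lower in all 4 CS7KO libraries than in any CRE library, 5 of the 9 other genes of this structure (55.6%, all genes 4.11%). Cavin1 stood at 341 ± 99.3 CPM in CRE and 143 ± 13.8 CPM in CS7KO (SD, n = 4 each; log2 fold change -1.22, SE 0.30, edgeR adjusted p = 0.280, DESeq2 adjusted p = 0.00459). Cavin2 had a log2 fold change of -1.30 (edgeR adjusted p = 0.280, DESeq2 0.00835), Cav1 of -1.45, Cav2 of -1.37 and Ehd2 of -1.16. The remaining 4 of the 9 overlapped between the groups, with log2 fold changes of 1.24 for Cavin4, 1.60 for Trim72, 0.42 for Anxa6 and -0.26 for Myof and edgeR adjusted p-values of 0.295, 0.311, 0.580 and 0.760. The muscle caveolin Cav3 overlapped as well (log2 fold change 0.23). All 8 endothelial markers had lower fitted levels in CS7KO (median log2 fold change -1.09), and their part in these levels was not tested.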
